A study of Mus musculus with 10 samples.

Results

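The genes described here are 49 genes that copy DNA in the nucleus. They were chosen by symbol from textbook roles, and all 49 were present among the 22186 genes of the deposited expression table. By role, 12 license replication origins, 8 fire them, 8 belong to the DNA polymerases and primase, 10 to the sliding clamp, its loader and the single-strand binding protein, 2 mature the lagging strand, 5 supply nucleotides and 4 act on newly copied chromatin. Poly(A) RNA was sequenced from wild-type RAW264.7 cells, a macrophage-like line from a mouse tumour that divides continuously in culture. Of the 10 libraries, 5 came from cells kept in medium and 5 from cells kept in medium with doxorubicin for 24 h. Doxorubicin, an anthracycline drug that poisons topoisomerase II, was dissolved in dimethyl sulfoxide, and the labels name that solvent for the doxorubicin cultures only. The dose differs between sources: 10 nM in the sample names, 100 nM in the series design, which marks it as the right value, and 1000 nM from the stated dilution. Whether replicates were grown as separate cultures is not stated, and p-values therefore cover the spread among these libraries alone, which may be technical.

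Replication is prepared in G1, when the origin recognition complex, CDC6 and CDT1 load the MCM helicase onto DNA. In S phase a kinase, CDC45 and the GINS complex turn the loaded helicase on, polymerase alpha and primase start each strand, and polymerases delta and epsilon extend them on the clamp PCNA. Most of these genes are transcribed under E2F control in dividing cells and are low in cells at rest, and DNA damage that activates p53 is known to restrain them.

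The libraries were checked before the genes were compared. FPKM (fragments scaled to transcript length and library size) summed to between 338293 and 356111 per library, and the read depth behind these values is unknown. Macrophage marker genes summed to 1965 to 2443 FPKM in medium and 2101 to 2605 under doxorubicin, although 2 of the 12, Mrc1 and C1qa, lay below 1 FPKM in every library. Lymphocyte markers summed to 3.72 to 12.3 FPKM, neutrophil markers to 0.619 to 1.74 and stromal and epithelial markers to 0.251 to 0.757. The p53 target Cdkn1a stood at 42.5 to 54.4 FPKM in medium and at 120.3 to 212 under doxorubicin. The 2 libraries of replicate number 1 stood apart: the ferritin gene Fth1 took 5.21% and 3.88% of their FPKM against 2.14% to 2.56% in the other 8.

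None of the 49 replication genes passed the test when the 5 doxorubicin libraries were compared with the 5 medium libraries as independent groups (limma on log2(FPKM + 1), Benjamini-Hochberg adjusted p of 0.05 over 9869 genes whose mean reached 1 FPKM). At an unadjusted p of 0.05 the count was 0 higher and 5 lower, and the exact permutation test gave the same unadjusted counts and none after adjustment. Of all 9869 genes tested, 653 were higher and 1104 lower at an unadjusted p of 0.05 (limma). After adjustment, 0.689% of all genes tested were called higher and 0.223% lower. The median log2 difference of the replication genes was -0.05, against -0.03 over all genes tested, with 16 genes above 0 and 33 below. These are bulk samples, so fewer cells in S phase and less RNA per cell cannot be told apart.

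Libraries of the same replicate number deviated together, and the number was therefore also fitted as a block. With that block, Cdc45, Pold1, Pold2, Pole, Rfc4, Lig1, Tk1 and Dnmt1 fell and Fen1 rose. The 8 that fell are 16.3% of the replication genes, and 13.7% of all genes tested fell. The 1 that rose is 2.04%, and 7.81% of all genes tested rose. Without the number 1 libraries, and with the block, 9 replication genes fell (18.4%; all genes tested 18.4%) and 3 rose (6.12%; all genes tested 10.2%). The added genes were Dbf4 among those that fell and Rpa2 and Gins3 among those that rose. In both fits with the block, counts of replication genes that fell therefore lay close to the share over all genes, and those that rose lay below it. Without the number 1 libraries and without the block, 5 replication genes fell (10.2%; all genes tested 2.77%) and none rose (all genes tested 2.87%). No replication gene had 5 doxorubicin libraries all above the 5 medium libraries (all genes tested 2.73%), and 2 genes, Cdc45 and Prim2, had all 5 below (all genes tested 3.97%). Within numbers, 10 replication genes were lower under doxorubicin in all 5 (20.4%; all genes tested 23.1%). Those higher in all 5 were 2 (4.08%; all genes tested 13.2%). The same sign in 5 of 5 numbers was thus no more frequent among replication genes than among all genes.

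**Figure D1:**
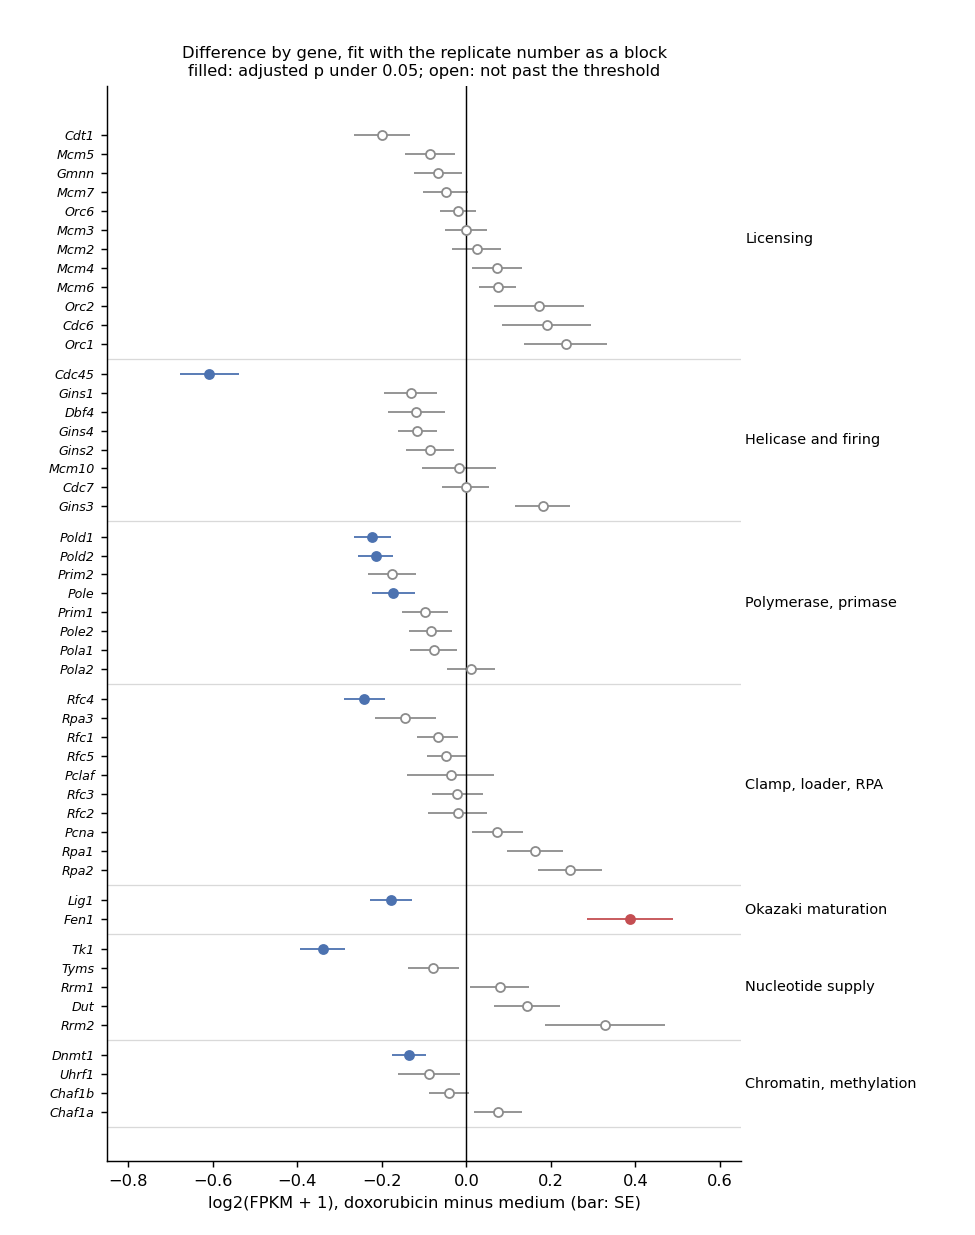
Log2 difference (doxorubicin minus medium, log2(FPKM + 1)) of each of the 49 replication genes, grouped by role, with its standard error from the blocked fit; filled points passed an adjusted p of 0.05. Cdc45 lies farthest below 0, at -0.61, and Fen1 farthest above, at 0.39.

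Promoter sequence was read because E2F control is the best known feature that these genes share. RefSeq windows (GRCm38.p6, 250 bases before to 50 after the start) were matched for 41 of the 49 genes. The E2F letters TTTCCCGC, TTTCGCGC, TTTGCCGC or TTTGGCGC, searched on both strands, occurred in the windows of 16 of the 41 (39.0%), against 2.61% of all 27025 genes. CCAAT, the box bound by NF-Y, occurred in 26 (63.4%, against 41.1%). TTTGAA, the letters of the cell-cycle homology region through which the DREAM complex acts at G2/M genes, occurred in 8 (19.5%, against 20.2%). E2F letters were found in 7 of 10 licensing genes, 3 of 6 polymerase genes and 0 of 5 nucleotide genes. A match is a description of letters and not a bound site.

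The windows of 4 genes are shown to set the gene with the largest fall (Cdc45) and a polymerase that fell (Pold1) beside a helicase gene that did not pass (Mcm5) and the gene that rose (Fen1). Capitals mark E2F, CCAAT and TTTGAA letters on either strand. Cdc45 (chr16:18811923-18812222, minus strand) has CCAAT letters as ATTGG near its start and TTTGAA letters far upstream and just after the start, and no E2F letters. Pold1 (chr7:44548766-44549065, minus strand) has E2F letters on the reverse strand after its start. Mcm5 (chr8:75109259-75109558, plus strand) has overlapping E2F letters on the 2 strands and 3 CCAAT boxes. Fen1 (chr19:10204344-10204643, minus strand; 1 of its 2 windows) has TTTGAA letters alone.
Cdc45: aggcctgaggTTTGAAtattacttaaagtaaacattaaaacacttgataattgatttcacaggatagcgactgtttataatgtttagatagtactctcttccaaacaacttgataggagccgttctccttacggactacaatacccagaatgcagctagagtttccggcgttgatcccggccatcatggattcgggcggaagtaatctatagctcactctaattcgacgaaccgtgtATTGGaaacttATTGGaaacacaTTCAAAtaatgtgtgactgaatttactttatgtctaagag
Pold1: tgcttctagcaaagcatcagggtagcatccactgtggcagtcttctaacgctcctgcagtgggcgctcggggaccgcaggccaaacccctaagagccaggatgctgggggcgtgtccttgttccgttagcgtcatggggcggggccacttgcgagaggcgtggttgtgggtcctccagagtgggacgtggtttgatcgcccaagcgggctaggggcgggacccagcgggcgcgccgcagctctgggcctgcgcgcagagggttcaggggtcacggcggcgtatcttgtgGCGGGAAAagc
Mcm5: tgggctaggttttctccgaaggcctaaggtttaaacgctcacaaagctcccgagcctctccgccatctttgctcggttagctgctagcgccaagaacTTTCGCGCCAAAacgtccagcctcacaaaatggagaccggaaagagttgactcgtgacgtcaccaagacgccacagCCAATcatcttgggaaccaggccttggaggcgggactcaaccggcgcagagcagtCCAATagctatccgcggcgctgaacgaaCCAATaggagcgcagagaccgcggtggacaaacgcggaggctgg
Fen1: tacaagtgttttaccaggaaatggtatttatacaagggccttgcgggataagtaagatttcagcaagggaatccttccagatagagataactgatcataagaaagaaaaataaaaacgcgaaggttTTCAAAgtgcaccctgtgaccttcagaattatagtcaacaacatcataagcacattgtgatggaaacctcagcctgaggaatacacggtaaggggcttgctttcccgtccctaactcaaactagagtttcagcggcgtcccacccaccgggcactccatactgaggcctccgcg

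Cdc45, the subunit that joins the MCM helicase to GINS and makes it active, had the largest difference of the 49 genes. In medium its level was 31.3, 44.0, 39.6, 49.2 and 47.6 FPKM in replicates 1 to 5. With doxorubicin it was 22.3, 29.8, 29.2, 29.1 and 25.8 FPKM. Every doxorubicin library lay below every medium library. The means were 42.4 ± 7.21 and 27.2 ± 3.17 FPKM (SD, n = 5), a log2 difference of -0.61 (SE 0.0697 with the block), and the difference was negative in 5 of 5 numbers. The adjusted p (limma) was 0.0532 without the block, 0.00203 with it and 0.000346 with the block when number 1 was left out. It stayed below 0.05 with the block whichever number was left out (0.0134 at most). The exact permutation p, 0.00794, is the smallest that 5 against 5 libraries allow, and adjustment over all genes made it 0.118. Without the block, leaving out medium replicate 1 alone brought the adjusted p to 0.00670.

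None of the other 7 firing genes passed with all libraries in the fit without a block or with the replicate number as a block. Under library quality weights, which count deviating libraries less, Dbf4 passed as lower and Gins3 as higher, and with 3 blocks (1, 2 with 3, 4 with 5) Gins4 passed as lower. Both fits called many genes. Of all genes tested, 14.0% passed as higher and 23.3% as lower with quality weights, and 12.2% and 19.9% with 3 blocks. Cdc7, the catalytic subunit of the kinase that fires origins, was level at 11.2 ± 0.451 FPKM in medium and 11.2 ± 1.08 under doxorubicin. Its activating subunit Dbf4 was at 28.5 ± 6.23 and 25.8 ± 3.12 FPKM, with an adjusted p (limma with the block) of 0.234. The number 1 libraries were its lowest in each group, and without them the adjusted p with the block was 0.0139 (log2 difference -0.19). With quality weights it was 0.0102. Mcm10, which helps the activated helicase to open the origin, was at 21.4 ± 5.16 and 20.7 ± 2.44 FPKM.

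GINS is a ring of 4 different subunits that stays with CDC45 at the fork. Gins1 was at 20.3 ± 3.75 FPKM in medium and 18.3 ± 2.20 under doxorubicin, Gins2 at 34.4 ± 3.82 and 32.3 ± 2.58, and Gins4 at 30.9 ± 1.88 and 28.5 ± 1.88. These 3 had log2 differences of -0.13, -0.09 and -0.12, and the adjusted p of Gins4 with 3 blocks was 0.0408. Gins3 lay on the other side. It was at 4.43, 7.41, 6.42, 5.00 and 5.20 FPKM in medium and 4.22, 8.43, 7.60, 6.29 and 6.63 under doxorubicin, higher under doxorubicin in every number but 1. Its adjusted p with the block was 0.0767, 0.00946 without number 1 (log2 difference 0.24) and 0.0211 with quality weights. Gins3 was also the lowest GINS subunit in 10 of 10 libraries, with the highest subunit between 3.78 and 7.51 times its level.

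**Figure D2:**
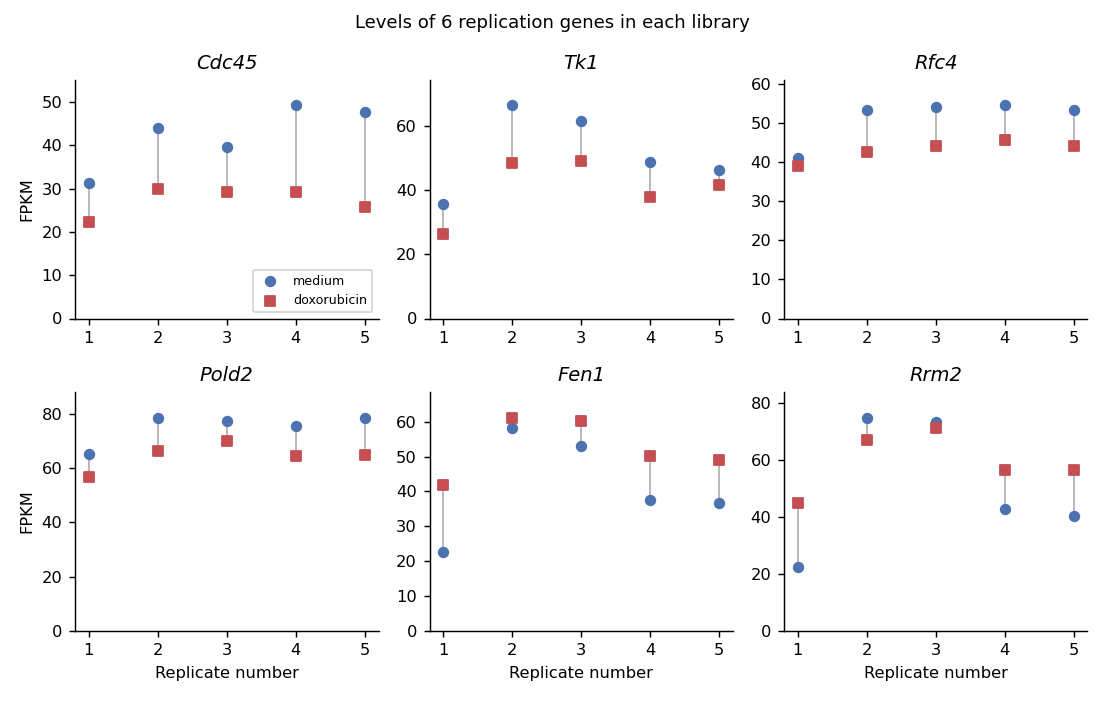
FPKM of Cdc45, Tk1, Rfc4, Pold2, Fen1 and Rrm2 in each library, with medium and doxorubicin libraries of the same replicate number joined by a line. Doxorubicin lies below medium for Cdc45, Tk1, Rfc4 and Pold2 in all 5 numbers, and above it for Fen1 in all 5. For Rrm2 doxorubicin lies above medium in numbers 1, 4 and 5 and below it in numbers 2 and 3.

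Of the 12 licensing genes, none passed with the replicate number as a block or without it, Cdt1 passed with 3 blocks and with quality weights, and the median log2 difference was 0.01. The MCM helicase subunits were level: Mcm2 stood at 61.4 ± 9.02 and 62.0 ± 5.15 FPKM, Mcm3 at 83.7 ± 12.7 and 83.1 ± 7.36, Mcm4 at 57.0 ± 13.5 and 59.1 ± 9.37, and Mcm6 at 94.5 ± 14.4 and 99.3 ± 13.5 (medium, then doxorubicin). Mcm5 was at 67.2 ± 17.2 and 62.3 ± 10.9 FPKM and Mcm7 at 82.2 ± 15.3 and 78.8 ± 9.82. For none of the 6 did the group means differ by more than 0.09 on the log2 scale, which is less than the spread within either group. Within numbers, all 6 were higher under doxorubicin in number 1 (0.02 to 0.28) and number 5 (0.04 to 0.12). All 6 were lower in number 2 (-0.04 to -0.31), and signs were mixed in numbers 3 and 4. Mcm6 was the highest subunit in 10 of 10 libraries and Mcm4 the lowest in 8, and the highest was 1.53 to 2.01 times the lowest.

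The genes that load the helicase varied most through the number 1 libraries. Orc1, an ATP-binding subunit of the origin recognition complex, was at 2.52, 6.38, 5.91, 4.56 and 3.97 FPKM in medium and 4.52, 5.88, 6.42, 5.50 and 5.11 under doxorubicin. The groups overlapped, and the log2 difference of 0.24 had an adjusted p (limma with the block) of 0.114. Orc2, another subunit of that complex, was lowest in number 1 of each group, at 8.52 and 14.4 FPKM against 25.1 to 29.6 in the other 8 libraries. Orc6 was level at 30.1 ± 3.50 and 29.7 ± 3.95 FPKM. Cdc6, the loader that joins the complex in G1, was at 9.28 ± 3.48 FPKM in medium and 10.3 ± 1.75 under doxorubicin.

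Cdt1, which brings MCM to the origin, and its inhibitor geminin did not share a pattern over the libraries. Cdt1 was at 79.5, 63.0, 62.9, 82.7 and 80.9 FPKM in medium and 58.1, 60.7, 63.0, 68.4 and 68.7 under doxorubicin. It was thus lower under doxorubicin in numbers 1, 4 and 5 and nearly level in numbers 2 and 3 (log2 difference -0.05 and 0.003). Its adjusted p (limma) was 0.308 without the block, 0.0645 with it, 0.0253 with 3 blocks and 0.0154 with quality weights. Gmnn, which encodes geminin, was at 29.1, 51.5, 47.6, 37.4 and 36.5 FPKM in medium and 30.2, 44.4, 41.3, 37.5 and 37.0 under doxorubicin, a difference of -0.07 on the log2 scale. Gmnn was lower under doxorubicin in numbers 2 and 3 and nearly level in the others.

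The median log2 difference of the polymerase genes was -0.14 (-0.11 without number 1), beside -0.03 (-0.04) over all genes tested. With the block 3 of 8 fell (37.5%, against 13.7% of all genes tested), and none passed without it. Pold1, the catalytic subunit of the lagging-strand polymerase delta, was at 24.7, 31.5, 31.8, 29.7 and 30.1 FPKM in medium and 22.0, 26.3, 27.3, 24.5 and 25.9 under doxorubicin. Pold2, its accessory subunit, was at 65.1, 78.4, 77.4, 75.3 and 78.6 FPKM in medium and 56.6, 66.4, 70.1, 64.3 and 64.9 under doxorubicin. For both genes the 2 groups overlapped only through medium replicate 1. The log2 differences were -0.22 (SE 0.0432) for Pold1 and -0.21 (SE 0.0417) for Pold2, and the adjusted p (limma) went from 0.204 and 0.184 without the block to 0.0119 and 0.0118 with it. Neither passed when number 4 or number 5 was left out (adjusted p up to 0.0616 and 0.0633).

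Pole, the catalytic subunit of the leading-strand polymerase epsilon, was at 6.99, 11.3, 11.2, 11.3 and 10.4 FPKM in medium and 6.61, 9.22, 9.71, 9.82 and 9.29 under doxorubicin. It was lower in 5 of 5 numbers, by little in number 1, where both libraries were low. The log2 difference of -0.17 had an adjusted p (limma with the block) of 0.0430, which was above 0.05 when any of numbers 2 to 5 was left out (up to 0.130). Its partner Pole2 was at 10.5 ± 2.25 and 9.76 ± 1.86 FPKM and did not pass (adjusted p 0.248).

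The genes of polymerase alpha and primase, which lay down the primers, did not pass with the replicate number as a block or without it. Pola1, the catalytic subunit, was at 17.7 ± 1.54 FPKM in medium and 16.8 ± 2.21 under doxorubicin, and its partner Pola2 was level at 20.7 ± 3.71 and 20.7 ± 2.32. Prim1, the subunit that makes the RNA primer, was at 20.6 ± 2.57 and 19.2 ± 2.21 FPKM. Prim2, the large primase subunit, is named because its groups did not overlap, which was seen in its values. It was at 15.0, 15.6, 15.2, 15.5 and 15.1 FPKM in medium and 11.5, 13.2, 14.6, 13.9 and 14.1 under doxorubicin. Medium libraries were narrow and every doxorubicin library lay below them, yet the adjusted p (limma) was 0.215 without the block and 0.0588 with it. Prim2 passed with 3 blocks (0.0222) and with quality weights (0.0238).

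**Figure D3:**
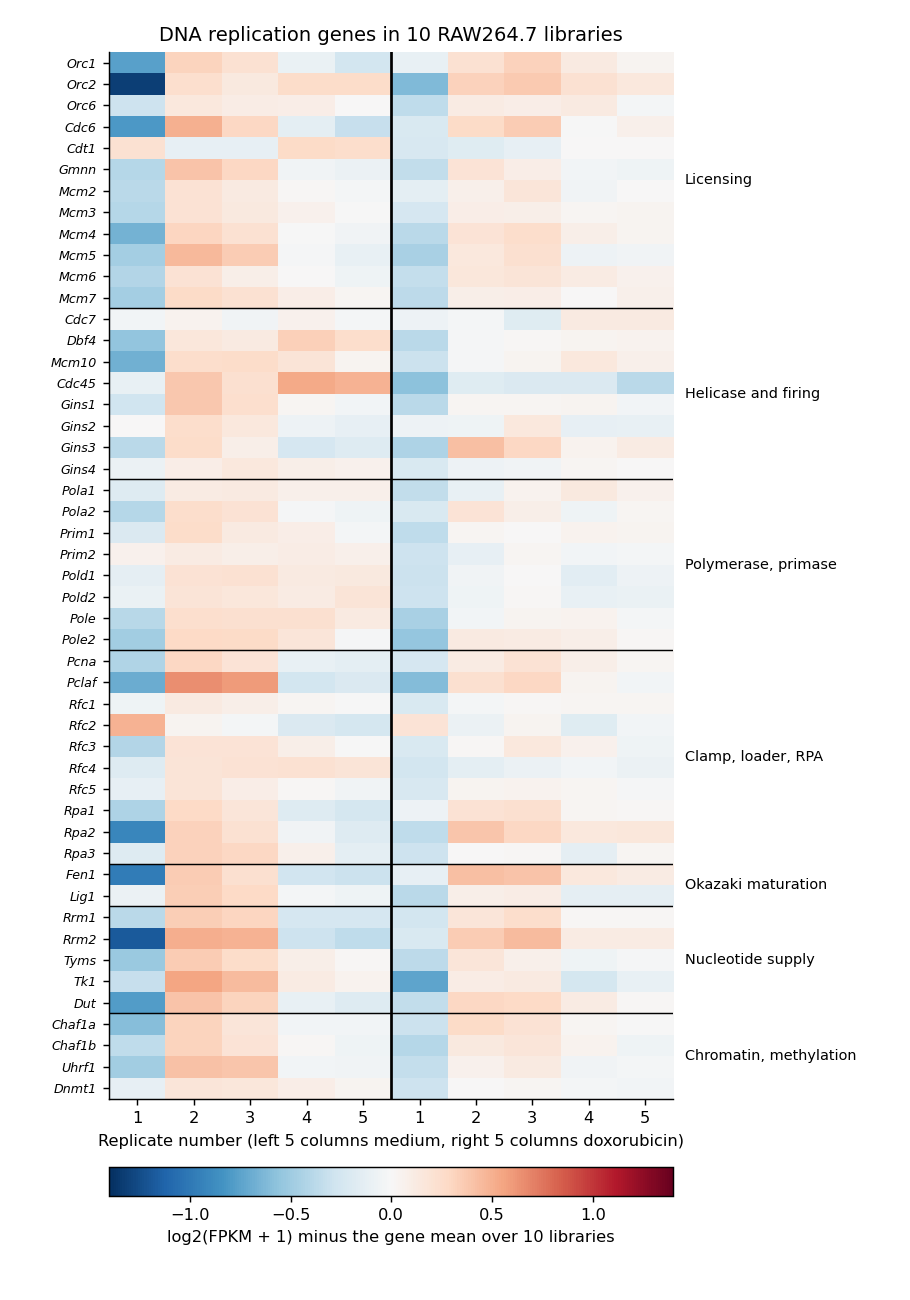
Deviation of each replication gene in each of the 10 libraries from its own mean (log2(FPKM + 1); blue below the mean, red above), with genes ordered by role. The columns of number 1 are blue for most genes in both groups, and the medium columns 2 and 3 hold the deepest red.

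PCNA is the ring that holds polymerases on DNA, RFC loads it and RPA coats single-stranded DNA. Pcna was the most abundant of the 49 genes, at 165, 269, 251, 204 and 200 FPKM in medium and 186, 239, 254, 233 and 224 under doxorubicin. The groups overlapped, and the log2 difference of 0.07 had an adjusted p (limma with the block) of 0.396. Pcna lay higher under doxorubicin in numbers 1, 4 and 5, lower in number 2 and level in number 3. Pclaf, a small protein that binds PCNA, was at 22.6, 58.9, 56.6, 31.0 and 32.2 FPKM in medium and 24.1, 43.8, 45.5, 38.2 and 36.2 under doxorubicin. It ranged more widely in medium than under doxorubicin, and the group means differed by -0.04 on the log2 scale.

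Among the 5 clamp loader genes only Rfc4, a small subunit, fell. Rfc4 was at 41.2, 53.3, 54.3, 54.6 and 53.4 FPKM in medium and 39.0, 42.6, 44.2, 45.8 and 44.2 under doxorubicin. All doxorubicin libraries lay below medium replicates 2 to 5, and medium replicate 1 lay among them. The log2 difference was -0.24 (SE 0.0492), with an adjusted p (limma) of 0.186 without the block and 0.0139 with it, and of 0.0641 at most with a number left out. Without the block, Rfc4 passed when medium replicate 1 alone was left out (0.0224). The large subunit Rfc1 was at 32.3 ± 1.73 and 30.8 ± 2.19 FPKM, and Rfc3 and Rfc5 differed by -0.02 and -0.05 on the log2 scale. Rfc2 was the only clamp loader gene with its highest library in number 1, at 69.4 FPKM in medium and 56.5 under doxorubicin against 41.6 to 50.7 in the other 8.

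The 3 RPA genes did not pass with all libraries in the fit without a block or with the replicate number as a block. Rpa1, the large DNA-binding subunit, was at 51.2 ± 10.8 FPKM in medium and 56.7 ± 5.17 under doxorubicin (log2 difference 0.16, adjusted p 0.105, limma with the block, and 0.0472 with quality weights). Rpa2, the subunit phosphorylated after DNA damage, was at 18.5, 44.9, 41.7, 34.7 and 31.4 FPKM in medium and 27.7, 47.0, 43.8, 39.7 and 40.0 under doxorubicin. Rpa2 was higher under doxorubicin in 5 of 5 numbers although the groups overlapped. Its adjusted p with the block was 0.0504, and 0.0428 without number 1. With 3 blocks it was 0.0232 and with quality weights 0.0539. Rpa3, the small subunit, was at 24.0 ± 4.01 and 21.5 ± 2.03 FPKM, with a difference of -0.14 (adjusted p 0.176).

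The 2 genes that finish Okazaki fragments went opposite ways. Fen1, the nuclease that trims the displaced flap, was at 22.6, 58.3, 53.1, 37.4 and 36.8 FPKM in medium and 41.9, 61.2, 60.3, 50.2 and 49.2 under doxorubicin. Lig1, the ligase that seals the nick, was at 37.5, 50.7, 48.4, 39.1 and 38.2 FPKM in medium and 30.4, 42.2, 42.7, 36.5 and 36.3 under doxorubicin. Fen1 was higher and Lig1 lower in each number, with overlap of the groups in both. Fen1 differed by 0.39 (SE 0.101, adjusted p 0.388 without the block and 0.0302 with it, limma) and Lig1 by -0.18 (SE 0.0499, 0.455 and 0.0379). Number 1 contributed most to Fen1, which differed by 0.27 without it (adjusted p 0.0123). With the block, Fen1 missed the threshold without number 4 or 5 (up to 0.0943) and Lig1 without any of numbers 2 to 5 (up to 0.0950). Lig1 also missed it with quality weights (0.326).

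The ratio of Fen1 to Lig1, chosen after the values were seen and given with no test, separated the groups. It was 0.603, 1.15, 1.10, 0.958 and 0.962 in medium and 1.37, 1.45, 1.41, 1.38 and 1.35 under doxorubicin. Every doxorubicin library had the higher ratio, and the doxorubicin values lay close together. A ratio of this kind shows unequal change and does not tell which of the genes changed. Of the ratios computed, only this one and that of Tk1 to Dut separated the groups. The groups overlapped for Rpa2 to Rpa3, Rrm2 to Rrm1, Rfc4 to Rfc5, Tk1 to Tyms, Cdc45 to Gins2, Pold1 to Pola1 and Cdt1 to Gmnn.

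**Figure D4:**
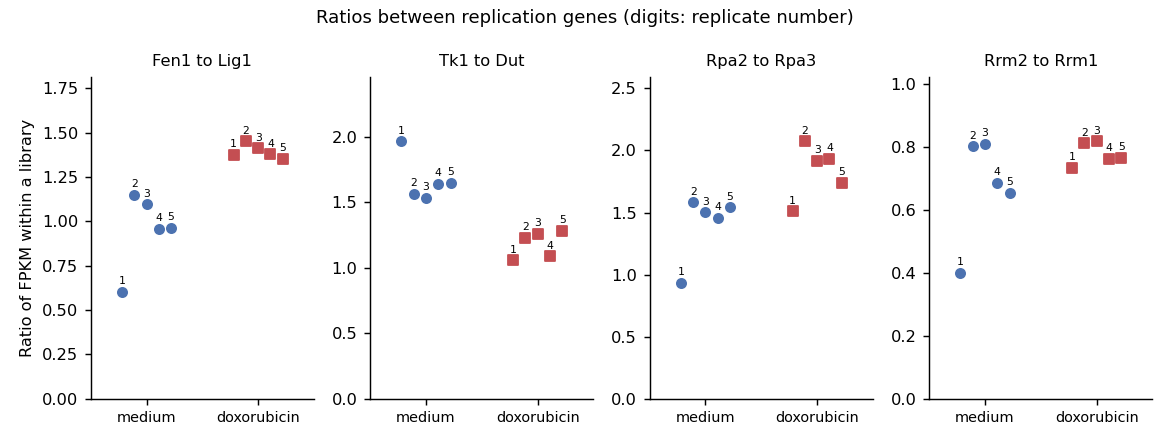
Ratios of FPKM between replication genes in each library, for Fen1 to Lig1, Tk1 to Dut, Rpa2 to Rpa3 and Rrm2 to Rrm1, with medium and doxorubicin libraries plotted apart. The groups do not overlap for the ratios of Fen1 to Lig1 (doxorubicin above) and of Tk1 to Dut (doxorubicin below), and overlap for the other 2.

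Of the 5 nucleotide supply genes, Tk1 alone passed with the replicate number as a block, and it fell. With quality weights Tk1 did not pass (adjusted p 0.0566, limma), and Rrm2 passed as higher. Tk1, the S-phase thymidine kinase that salvages thymidine, was at 35.8, 66.5, 61.5, 48.7 and 46.4 FPKM in medium and 26.4, 48.4, 49.1, 37.8 and 41.7 under doxorubicin. The groups overlapped, but Tk1 was lower under doxorubicin in 5 of 5 numbers. The means were 51.8 ± 12.3 and 40.7 ± 9.27 FPKM (SD, n = 5), a log2 difference of -0.34 (SE 0.0537). The adjusted p (limma) was 0.387 without the block and 0.00594 with it, and with the block it was 0.0342 at most when a number was left out. Cdc45 and Tk1 were the only replication genes that passed with the block whichever number was left out.

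The genes of new deoxynucleotide synthesis behaved otherwise. Rrm2, the S-phase subunit of ribonucleotide reductase, was at 22.6, 74.9, 73.4, 42.6 and 40.4 FPKM in medium and 44.8, 67.1, 71.3, 56.6 and 56.6 under doxorubicin. Its log2 difference was 0.96 in number 1, -0.16 and -0.04 in numbers 2 and 3, and 0.40 and 0.48 in numbers 4 and 5, so the sign depended on the number (adjusted p 0.126, limma with the block, and 0.0458 with library quality weights). Rrm1, the catalytic subunit, had the same signs, with 0.11, -0.17, -0.05, 0.25 and 0.25. Dut, which clears dUTP, did too, at 0.44, -0.10, -0.04, 0.22 and 0.20. Tyms, which makes thymidylate, was at 15.9 ± 3.60 FPKM in medium and 14.8 ± 2.13 under doxorubicin and did not pass (adjusted p 0.375). The ratio of Tk1 to Dut, also chosen after its values were seen, was 1.53 to 1.96 in medium and 1.06 to 1.28 under doxorubicin.

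Among the 4 genes of newly copied chromatin, Dnmt1 fell. Dnmt1, the methyltransferase that copies DNA methylation onto the new strand, was at 72.1, 88.0, 87.6, 83.6 and 80.5 FPKM in medium and 63.8, 78.5, 79.6, 76.7 and 76.1 under doxorubicin. The groups overlapped through medium replicate 1, and the difference was negative in 5 of 5 numbers (log2 -0.14, SE 0.0402). Its adjusted p (limma with the block) was 0.0444, and up to 0.132 when any of numbers 2 to 5 was left out. Uhrf1, which recruits DNMT1 to freshly copied DNA, was at 61.4 ± 15.3 and 56.5 ± 6.77 FPKM (adjusted p 0.407). Chaf1a and Chaf1b, subunits of the histone chaperone CAF-1, were at 29.9 ± 6.73 and 28.5 ± 5.04 FPKM in medium and 31.2 ± 4.76 and 27.6 ± 4.27 under doxorubicin.

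Levels of the replication genes followed the replicate number in both groups. Summed over the 49 genes, FPKM was 1612, 2483, 2365, 2065 and 1997 in medium and 1670.5, 2193, 2253, 2064 and 2046 under doxorubicin. Medium replicate 1 was the lowest medium library for 45 of 49 genes (91.8%, against 48.6% of all genes tested), and doxorubicin replicate 1 was the lowest doxorubicin library for 46 (93.9%, against 42.3%). Replicates 4 and 5 both lay below 2 and 3 for 40 genes in medium (81.6%, against 31.9%) and for 33 under doxorubicin (67.3%, against 25.5%). The libraries thus formed the same 3 levels for most replication genes in both groups: 2 and 3 high, 4 and 5 between, and 1 low. What differs between replicate numbers is not stated in the labels, and its part in the results was not tested beyond the block.

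Within replicate numbers the difference was not the same. The median log2 difference of the 49 genes was 0.02, -0.17, -0.07, -0.02 and 0.04 in numbers 1 to 5, and over all genes tested it was 0.02, -0.07, 0.00, -0.03 and -0.03. In number 2, 45 of 49 replication genes were lower under doxorubicin (91.8%, against 70.5% of all genes tested), and in number 5 only 19 were (38.8%, against 57.2%). The median of the 8 polymerase genes lay below 0 in each number, at -0.15, -0.23, -0.13, -0.12 and -0.05. That of the 8 firing genes did too, at -0.07, -0.21, -0.16, -0.04 and -0.0004. The 12 licensing genes had medians of 0.14, -0.12, 0.02, -0.01 and 0.04, and the 5 nucleotide genes of 0.15, -0.17, -0.05, 0.22 and 0.20. Lower in numbers 2 and 3 but higher in 4 and 5 was the pattern of 7 genes (14.3%, against 4.88% of all genes tested), among them Rrm1, Rrm2 and Dut.

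**Figure D5:**
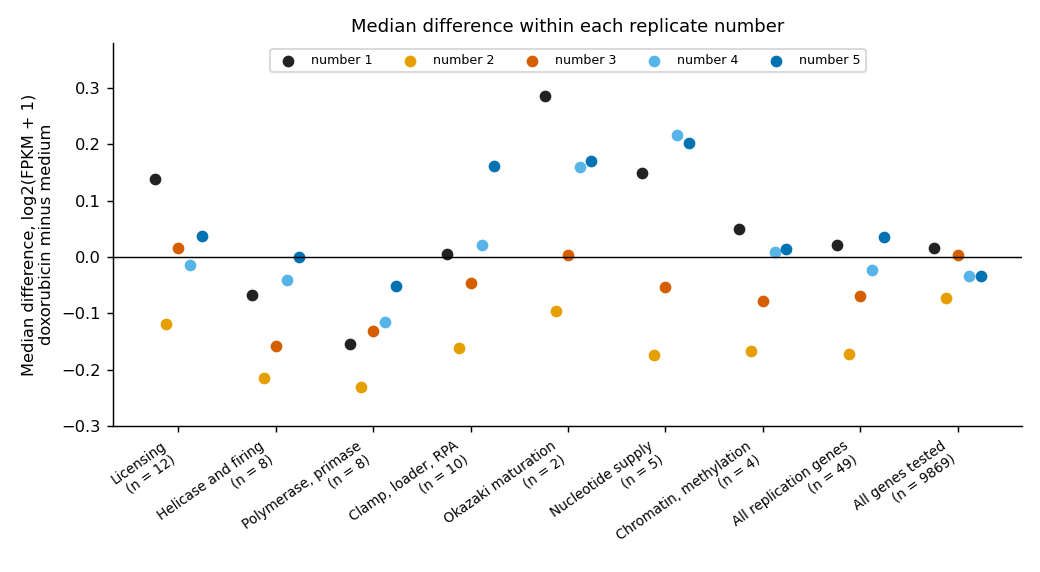
Median log2 difference (doxorubicin minus medium, log2(FPKM + 1)) within each replicate number, 1 point per number. Columns are the roles, all replication genes together and all genes tested. Polymerase genes and firing genes have medians below 0 in all 5 numbers, that of the firing genes being -0.0004 in number 5. Nucleotide supply genes have medians of 0.15, -0.17, -0.05, 0.22 and 0.20.

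The doxorubicin libraries were closer to each other than the medium libraries. The SD of log2(FPKM + 1) over the 5 libraries was smaller under doxorubicin for 40 of 49 genes (81.6%), with a median of 0.259 in medium and 0.179 under doxorubicin. Over all genes tested it was smaller for 73.0%, with medians of 0.184 and 0.133. Without number 1 it was smaller for 40 replication genes again (81.6%, against 56.8% of all genes tested), with medians of 0.156 and 0.0925. Rrm2, for example, ranged without number 1 from 40.4 to 74.9 FPKM in medium and from 56.6 to 71.3 under doxorubicin.

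A further 66 genes of replication were listed by role, of which 65 were tested. None passed without the block, where 1 was higher and 5 lower at an unadjusted p of 0.05 (limma). Of all 9869 genes tested, 653 were higher and 1104 lower at that level. With the block 6 rose (9.23%) and 7 fell (10.8%), beside 7.81% and 13.7% of all genes tested. Of 16 further licensing and firing genes 2 rose (12.5%) and 4 fell (25.0%), with a median log2 difference of 0.00. Mtbp and Ticrr, partners in loading CDC45, were at 12.8 ± 2.53 and 6.16 ± 0.661 FPKM in medium and 9.27 ± 2.35 and 4.97 ± 0.559 under doxorubicin, with adjusted p of 0.00309 and 0.0128 (limma with the block). Recql4, a helicase of the same step, went from 9.58 ± 2.31 to 7.13 ± 1.20 FPKM (adjusted p 0.0181). These 3 were lower in 5 of 5 numbers, and of the 3 only Mtbp passed whichever number was left out (0.0189 at most). Other genes of the list went otherwise and are named after their values were seen. Topbp1 and Donson, which also act in origin firing, differed by -0.01 and 0.03 on the log2 scale. Ccne1, a cyclin that drives entry into S phase, rose by 0.73 (adjusted p 0.0302) and Mcm9 by 0.19 (0.0433), each higher in 5 of 5 numbers, and Orc3 fell by 0.32 (0.0486). With the block, Ccne1 missed the threshold without number 3, 4 or 5, and Orc3 without number 1, 2, 4 or 5. Mcm9 missed it whichever number was left out.

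Of 19 further nucleotide genes 4 rose with the block (21.1%, against 7.81% of all genes tested) and 2 fell (10.5%, against 13.7%). Their median log2 difference was 0.13, with 15 genes above 0 and 4 below. Shmt2, the mitochondrial enzyme that supplies one-carbon units, fell from 215 ± 38.3 to 166 ± 17.4 FPKM (adjusted p 0.00492), and Tk2, the mitochondrial thymidine kinase, from 7.49 ± 1.48 to 5.85 ± 1.24 (0.00632). Samhd1, which breaks down deoxynucleotides, rose from 48.6 ± 9.17 to 55.7 ± 7.66 FPKM (0.0255, all limma with the block), higher in 5 of 5 numbers. Nme2, Nme1 and Dtymk, named after their values were seen, also rose (adjusted p 0.0314, 0.0324 and 0.0362, limma with the block). Each was higher in 5 of 5 numbers. Of 9 further chromatin genes 1 fell (11.1%, against 13.7% of all genes tested). It was the histone chaperone Asf1a, from 8.80 ± 2.51 to 7.07 ± 2.12 FPKM (adjusted p 0.0174, limma with the block). None of 21 further fork and polymerase genes passed with the block (1 higher and 4 lower at an unadjusted p of 0.05). Of all 9869 genes tested, 1460 were higher and 2351 lower at an unadjusted p of 0.05 (limma with the block). Recql4, Ticrr and Asf1a missed the threshold when number 4 or number 5 was left out, and Samhd1 when number 3, 4 or 5 was (up to 0.0893). Nme1 and Dtymk missed it when number 3, 4 or 5 was left out, and Nme2 when any of numbers 2 to 5 was.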

How the data were processed

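The deposited values were FPKM computed by the authors from poly(A) RNA selected on oligo(dT), 1 column for each library and 1 symbol for each gene. Per the submitters' processing notes the genome build was GRCm39. The aligner, quantifier and annotation are not given in the sources used here, and FPKM holds no read totals, so depth is unknown and no counting interval is given.

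Values were analysed as log2(FPKM + 1), on which genes of low level show less than their true change. The 9869 genes whose mean over the 10 libraries reached 1 FPKM were tested with limma 3.58.1 in R 4.3.3 (trended prior, Benjamini-Hochberg adjusted p of 0.05). Group was the only term of the reported comparison. Replicate numbers 1 to 5 come from the sample titles. Deviations of same-numbered libraries correlated at 0.79, 0.70, 0.67, 0.52 and 0.55, so the number was also fitted as a block. Numbers 2 and 3 correlated across groups as well (0.69 and 0.59), as did 4 and 5 (0.51 both ways), so 3 blocks were an alternative. Other alternatives were a pseudocount of 0.1, no filter on low values, scaling of libraries to 1 total, quantile normalization, library quality weights, an exact permutation test and leaving out each library or number. The test was checked on simulated data.

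The 49 genes and the other lists were chosen with earlier results of these data known. Genes were named by rule: those that passed with or without the block, the 3 with the smallest p of each role and a set chosen by function; the rest are given so that every one is accounted for. Of the 66 further genes, up to 3 that passed in each list are named, by smallest p, and others where the text says so. Promoter windows came from RefSeq for an earlier build and served for sequence only.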

Additional observations from a re-analysis of the deposited data

Results flagged for a closer look

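In 19 of 98 groups of 5 libraries, 1 library lay farther from the nearest other than Dixon's 95% limit allows; chance alone gives about 1 in 20 groups, and genes of the same library are not independent. In 18 of the 19 the library was of replicate number 1 and the lowest. Doxorubicin replicate 1 was low for Orc2 (14.4 FPKM), Mcm3 (70.3), Mcm6 (76.0), Mcm7 (61.6), Dbf4 (20.2), Gins1 (14.5), Prim1 (15.3), Pole (6.61), Pole2 (6.48), Rfc1 (27.0), Rfc5 (44.6) and Dnmt1 (63.8). Medium replicate 1 was low for Orc2 (8.52 FPKM), Dbf4 (17.8), Pola1 (15.0), Pold2 (65.1), Pole (6.99) and Rfc4 (41.2). The remaining case was Gins2, highest in doxorubicin replicate 3 at 36.8 FPKM.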

How the results depend on the processing

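Counts of calls moved with the way replicate numbers were handled. Without a block, 68 of all genes tested were higher and 22 lower. The counts were 771 and 1356 with the number as a block, 1205 and 1963 with 3 blocks (1, 2 with 3, 4 with 5), 1379 and 2302 with library quality weights, 283 and 273 with the number 1 libraries left out, and 0 and 0 in the exact permutation test. Leaving out libraries or numbers in turn gave 15 to 1010 higher and 0 to 1817 lower. Of the 49 replication genes, 1 higher and 8 lower passed with the block, 2 and 11 with 3 blocks, 4 and 9 with quality weights, 0 and 5 without number 1, 0 and 1 (Cdc45) after quantile normalization, and 0 to 3 higher and 0 to 9 lower when libraries or numbers were left out. With 3 blocks the shares were 4.08% higher and 22.4% lower (all genes tested 12.2% and 19.9%). With quality weights they were 8.16% and 18.4% (all genes tested 14.0% and 23.3%). With the block, leaving out numbers 1 to 5 in turn gave 9, 5, 5, 2 and 2 lower. The cause of these moves was not tested.

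No gene that passed with the block changed sign. The sign of 26 genes turned when a library or number was left out, none of which passed with or without the block. Their lowest and highest log2 differences were -0.039 and 0.040 for Cdc7, -0.064 and 0.16 for Chaf1a, -0.14 and 0.055 for Chaf1b, -0.035 and 0.26 for Dut, -0.18 and 0.025 for Gmnn, -0.19 and 0.054 for Mcm10, -0.066 and 0.078 for Mcm2, -0.10 and 0.057 for Mcm3, -0.083 and 0.18 for Mcm4, -0.22 and 0.018 for Mcm5, -0.020 and 0.17 for Mcm6, -0.17 and 0.036 for Mcm7. They were -0.14 and 0.35 for Orc2, -0.095 and 0.065 for Orc6, -0.22 and 0.12 for Pclaf, -0.022 and 0.15 for Pcna, -0.089 and 0.074 for Pola2, -0.22 and 0.041 for Pole2, -0.084 and 0.097 for Rfc2, -0.13 and 0.030 for Rfc3, -0.083 and 0.00098 for Rfc5, -0.0048 and 0.17 for Rrm1, -0.22 and 0.0044 for Tyms and -0.22 and 0.0023 for Uhrf1, and for Donson and Topbp1 of the further list -0.065 and 0.11, and -0.12 and 0.059. With quality weights the sign also turned for Cdc7 (0.043), Mcm2 (-0.0035), Orc2 (-0.036), Pclaf (0.16) and Rfc2 (0.12). After quantile normalization it turned for Cdc7 (0.045), Mcm10 (0.016), Rfc3 (0.013) and Topbp1 (0.0035), and with the number 1 libraries left out for Cdc7 (0.0042), Mcm2 (-0.028), Pola2 (-0.033), Rfc2 (0.047) and Donson (-0.0097).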
